A study of Mus musculus with 9 samples.

Results

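The genes described here are 29 products of the pancreatic acinar cell: proteases and their inhibitor, lipases, amylases, a ribonuclease and proteins of the zymogen granule. They were taken by symbol from tables of RNA sequencing of mouse islets. All 29 were found among the 24393 usable gene symbols of the count table, with the trypsin inhibitor listed as Spink1 and pancreatic amylase as Amy2a5. Of these, 23 passed the filter on low counts and were among the 12501 genes tested, and Ctrc, Prss1, Prss3, Try10, Amy2a5 and Amy2b did not pass. Every library was made from pancreatic islets of female mice, freed with collagenase, cleaned by hand picking and kept overnight in culture. The 4 knockout (KO) libraries had the genotype Rip-cre; Ogt f/f, in which Cre recombinase is driven by an insulin promoter and deletes Ogt in beta cells, so acinar cells are not its target. The 5 wild-type (WT) libraries carried floxed Ogt without Cre, as Ogt f/+ in WT replicates 1 and 3 and as Ogt f/f in WT replicates 2, 4 and 5. No control carried Rip-cre alone, so the transgene and the deletion cannot be told apart, and the labels give no age. Run 1 held WT replicates 1 to 3 and KO replicates 1 and 2. The later pool, called both run 3 and the 2nd run in the labels and run 3 here, held WT replicates 4 and 5 and KO replicates 3 and 4.

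Acinar cells make up most of the pancreas outside the islets. They store digestive enzymes as inactive precursors (zymogens) in granules at the apical membrane and release them into the ducts after a meal, and trypsin, once cut from trypsinogen, activates the other protease precursors. Islets are freed from this tissue by digestion and picking, and acinar RNA in an islet library can come from acinar cells still attached or from RNA set free by broken ones. In such bulk samples fewer acinar cells and less enzyme RNA per cell cannot be told apart.

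Total counts were 3796043 to 4462754 per library in run 1 and 5150443 to 6073537 in run 3, so a member at 0 counts may still stand at up to 0.44 to 0.972 CPM (counts scaled to a common library size), depending on the library. This limit, and the intervals below, cover counting error only. The summed level of 7 endocrine genes (Ins1, Ins2, Gcg, Sst, Ppy, Chga and Iapp) was 75875 to 160962 CPM in every library, as the islet label says. Ogt stood at 54.1 to 83.0 CPM in WT and at 23.7 to 39.3 CPM in KO libraries. The labels do not tie libraries to separate animals, so the p-values describe only library-to-library spread, part of which may be technical.

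Acinar transcripts made up a small share of the counts, and that share differed more between runs than between genotypes. The 29 genes held 0.308% of the counts of WT replicate 1 (95% Wilson interval 0.303% to 0.314%), 0.679% of WT replicate 2 (0.671% to 0.687%) and 0.575% of WT replicate 3 (0.568% to 0.582%). In the KO libraries of the same run they held 0.265% in replicate 1 (0.26% to 0.27%) and 0.0547% in replicate 2 (0.0526% to 0.0569%). In run 3 the shares were 0.0209% (0.0198% to 0.0222%) and 0.0196% (0.0186% to 0.0208%) in WT replicates 4 and 5. They were 0.014% (0.013% to 0.015%) and 0.0409% (0.0393% to 0.0426%) in KO replicates 3 and 4. All 4 libraries of run 3 lay below all 5 of run 1, and the intervals of the libraries in run 1 did not overlap.

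On the CPM scale, with library sizes scaled by TMM, the summed level was 3254, 8333 and 6368 CPM in the WT and 2781 and 585 CPM in the KO libraries of run 1. It was 181 and 201 CPM in the WT and 119 and 351 CPM in the KO libraries of run 3. KO replicate 1 was thus close to WT replicate 1, KO replicate 2 was far below both, and in run 3 the KO libraries lay on both sides of the WT libraries. The highest library of all was 69.8 times the lowest, a ratio of 14.3 within run 1 and of 2.94 within run 3.

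**Figure D1:**
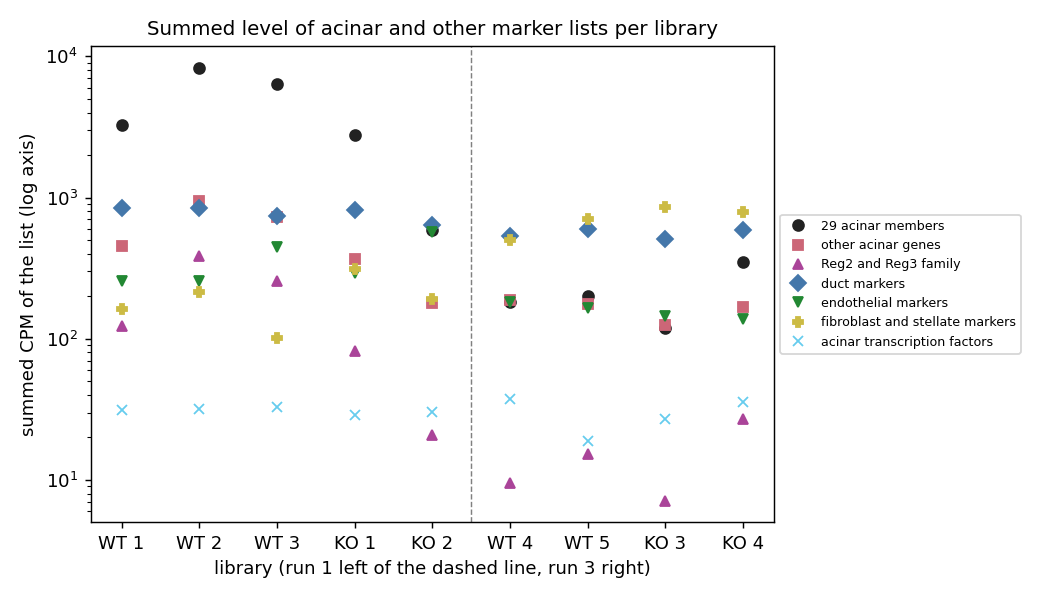
Summed level in CPM (log axis) of the 29 acinar genes and of 6 other marker lists in each of the 9 libraries, with run 1 left and run 3 right of the dashed line and 1 symbol per list. The acinar genes span 585 to 8333 CPM in run 1 and 119 to 351 CPM in run 3. The sum of the duct markers stays between 512 and 851 CPM in all libraries, but most of it is 1 gene, Krt7 (306 to 627 CPM).

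All 23 tested members were lower in run 3 than in run 1 at an adjusted p under 0.05, beside 16.3% of all tested genes (31.4% in either direction, and 41.9% at an unadjusted p under 0.05). Their log2 differences of run 3 against run 1 lay between −5.57 and −2.73, with a median of −3.96, against a median of 0.01 over all tested genes. In 19 of the 23 every library of run 3 lay below every library of run 1, beside 9.26% of all tested genes. Pnlip, the pancreatic triglyceride lipase, had the largest of these differences. Its mean was 283 ± 206 CPM (SD, n = 5) in run 1 and 4.72 ± 2.79 CPM (SD, n = 4) in run 3, a log2 difference of −5.57 ± 0.61 (SE) with an adjusted p of 5.73e-06. Reg1, a secreted lectin-like protein of the regenerating family, had the smallest. Its mean was 84.3 ± 67.8 CPM (SD, n = 5) in run 1 and 9.44 ± 6.64 CPM (SD, n = 4) in run 3, a log2 difference of −2.73 ± 0.57 (SE) with an adjusted p of 0.00184. The runs were sequenced as separate pools, and islet preparation, pool and depth cannot be told apart.

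The chymotrypsin and elastase genes held 34.1% to 38.6% of the members' counts in run 1 and 27.1% to 37.4% in run 3. The trypsinogen genes held 22.1% to 25.0% in run 1. In run 3 they held 33.3% and 28.97% in WT replicates 4 and 5, and 34.8% and 34.3% in KO replicates 3 and 4. Every library of run 3, of either genotype, was thus above every library of run 1 in trypsinogen share. The trypsinogens held as much as the chymotrypsin and elastase genes in KO replicate 3 (34.8% each) and more in KO replicate 4 (34.3% against 27.1%). They held slightly less in WT replicate 4 and less in WT replicate 5. Ctrb1, the chymotrypsinogen B precursor on chromosome 8, measured 633, 1587 and 819 CPM in the WT libraries of run 1 (replicates 1 to 3), and 551 and 75.5 CPM in its KO libraries (replicates 1 and 2). In run 3 it stood at 26.8 and 33.1 CPM in WT and at 11.5 and 38.3 CPM in KO. All KO libraries were below all WT libraries in run 1, by a small margin for KO replicate 1, and the groups overlapped in run 3. Cela1, a pancreatic elastase, stood at 390, 871 and 853 CPM in WT and 313 and 81.1 CPM in KO in run 1. Its run 3 levels were 18.7 and 26.9 CPM in WT and 19.6 and 32.4 CPM in KO. Cela2a and Cela3b, elastase family members on chromosome 4, reached at most 285 and 164 CPM, both in WT replicate 2. Ctrl, a chymotrypsin-like protease, stood at 54.2, 125 and 146 CPM in WT and at 43.1 and 10.5 CPM in KO in run 1, and at 1.18 to 3.31 CPM in run 3. Ctrc, the chymotrypsin that can degrade trypsinogen, had 15 counts in all libraries together. Its annotated gene (chromosome 4, 141814962 to 141846359) spans that of Cela2a (141814962 to 141826160) on the same strand of GRCm38 in GENCODE M21.

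Trypsinogen genes lie together on chromosome 6, where the 7 members occupy positions between 41030268 (2210010C04Rik) and 41525079 (Prss2). Prss2 stood at 282, 826 and 489 CPM in the WT and at 260 and 41.6 CPM in the KO libraries of run 1. In run 3 it was at 14.3 and 16.4 CPM in WT and at 12.1 and 37.9 CPM in KO. Try5 stood at 298, 801 and 344 CPM in WT and 248 and 43.6 CPM in KO in run 1, and Try4 at 87.7, 273 and 321 CPM against 69.8 and 22.2 CPM. In both, WT replicates 2 and 3 differed, with Try5 higher in replicate 2 and Try4 higher in replicate 3. 2210010C04Rik, annotated as a protein-coding gene of this cluster, ranged from 20.9 to 246 CPM in run 1 and from 4.15 to 12.8 CPM in run 3. Prss1, Prss3 and Try10 stayed low, with 23, 89 and 73 counts in all 9 libraries together.

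These related genes could share reads. Of the windows of 50 bases in the longest coding transcript of each gene (GENCODE M21), 65.6% of those of Try4 and 53.9% of those of Try5 also occurred in transcripts of other genes, and 45.9% of the windows of each were found in the other. The share was 66.1% for Prss3, 54.9% for Prss1, 40.8% for Try10 and 7.83% for Prss2. For Cela2a it was 25.6%, all of it found in Ctrc, and for Cela3b it was 33.2%. It was 0% for 18 of the 29 members, among them Ctrb1, Cela1, Cpa1, Cel, Pnlip and 2210010C04Rik. The handling of reads that match several genes is not stated in the labels, so separate values of Try4, Try5, Prss1, Prss3 and Try10 are uncertain. The same holds for Ctrc, Cela2a and Cela3b. Counts and FPKM values (length-scaled levels, computed by the authors) also parted for some low members. Of 261 member values, 15 had counts above 0 beside an FPKM of 0, spread over 7 members (Prss1, Prss3, Try10, Ctrc, Pla2g1b, Spink1 and Zg16). The last 4 had no shared windows in their longest coding transcript, though another transcript of Ctrc shares the stretch found in Cela2a. Try4 and Try5 had no FPKM of 0 beside counts. Prss3 had 10 counts at an FPKM of 0 in WT replicate 5.

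The carboxypeptidases trim peptides from their carboxyl end. Cpa1, which removes aromatic and aliphatic residues, stood at 271, 711 and 521 CPM in WT and at 217 and 43.6 CPM in KO in run 1, and at 9.79 and 10.6 CPM in WT and 6.48 and 25.8 CPM in KO in run 3. Cpb1, which removes basic residues, stood at 84.8, 208 and 304 CPM in WT and at 72.3 and 30.7 CPM in KO in run 1. Its levels in run 3 were 4.07 and 7.60 CPM in WT and 2.66 and 8.51 CPM in KO. For both genes KO and WT were apart in run 1 and overlapped in run 3.

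Among the lipid enzymes, Pnlip stood at 196, 463 and 524 CPM in WT and at 203 and 28.0 CPM in KO in run 1, so that KO replicate 1 was above WT replicate 1. Cel, the bile salt-dependent lipase, stood at 183, 396 and 420 CPM in WT and at 124 and 39.7 CPM in KO in run 1, and at 9.03 and 5.58 CPM in WT and 3.99 and 12.3 CPM in KO in run 3. The lipase-related genes Pnliprp1 and Pnliprp2 lie beside Pnlip on chromosome 19, and in run 1 they reached 728 and 98.8 CPM in WT replicate 2. Clps, the cofactor colipase, ranged from 4.63 to 66.4 CPM in run 1 and from 0.332 to 4.40 CPM in run 3. Pla2g1b, the pancreatic phospholipase A2, ranged from 1.70 to 27.3 CPM and from 0.332 to 1.47 CPM.

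Pancreatic amylase is an abundant acinar product, yet the amylase rows were near the limit of detection. Amy2a5 had 0, 2 and 23 counts in WT replicates 1 to 3, 12 and 1 in KO replicates 1 and 2, 9 and 2 in WT replicates 4 and 5, and 4 and 18 in KO replicates 3 and 4. Amy2b, annotated as an unprocessed pseudogene in GENCODE M21, had 79 counts in all. Of the windows of Amy2a5, 57.2% occurred in transcripts of other genes, nearly all of them in Amy2a2, whose share was 57.1%. Whether shared reads were dropped was not tested, so these rows do not give the level of amylase RNA.

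Rnase1, the secreted pancreatic ribonuclease, stood at 46.2, 111 and 98.2 CPM in WT and at 33.3 and 14.1 CPM in KO in run 1, and at 2.16 to 5.28 CPM in run 3. Spink1, the inhibitor that guards against early trypsin activity, had 88 counts in all libraries together, 35 of them in WT replicate 2, and 0 in KO replicates 2 and 3. Among the granule proteins, Gp2, a glycoprotein of the granule membrane, stood at 76.0, 177 and 81.8 CPM in WT and 54.4 and 9.25 CPM in KO in run 1. Zg16, a lectin of the zymogen granule, stood at 6.59, 19.4 and 28.8 CPM in WT and 6.30 and 2.68 CPM in KO in run 1, and at 0 to 1.69 CPM in run 3. Sycn, a peripheral granule membrane protein, reached 31.4 CPM in WT replicate 2 and had between 0 and 11 counts in the libraries of run 3.

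**Figure D2:**
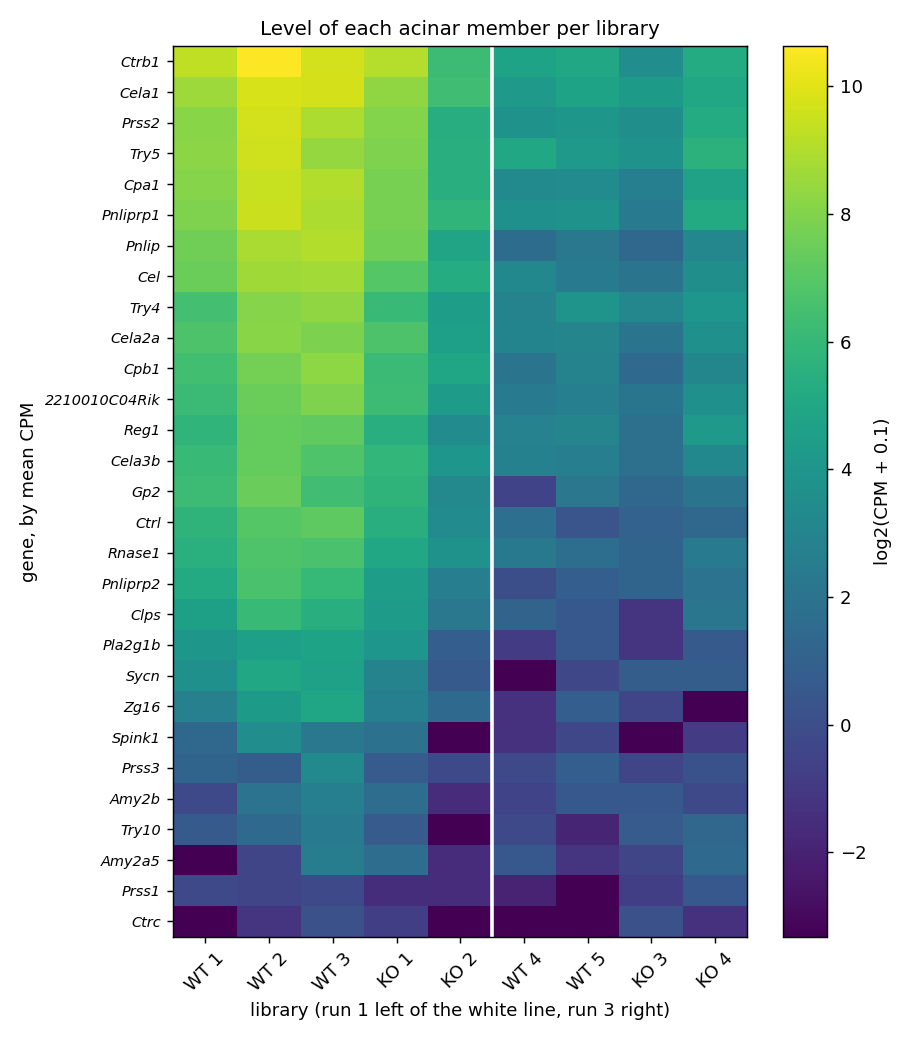
Level of each of the 29 acinar genes (rows, by mean CPM) in each library (columns, run 1 left and run 3 right of the white line) as log2(CPM + 0.1), from dark purple (low) to yellow (high). WT replicate 2 reaches 1587 CPM for Ctrb1, KO replicate 2 is the darkest column of run 1, and the amylase rows and Ctrc are low throughout.

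Most members were high and low in the same libraries. KO replicate 2 alone was the lowest library of run 1 in 27 of the 29 members and in 23 of the 23 tested ones, beside 21.4% of all tested genes. WT replicate 2 was alone the highest in 15 members and WT replicate 3 in 14, so 1 of these controls led in every member. In run 3, KO replicate 4 alone was the highest library in 21 of the 29 members (18 of the 23 tested, beside 23.5% of all tested genes). KO replicate 3 alone was the lowest in 17 of the 29 (16 of the 23 tested, beside 25.1%). Of the control libraries of run 1, the Ogt f/+ replicates 1 and 3 had summed levels of 3254 and 6368 CPM and the Ogt f/f replicate 2 had 8333 CPM, so the f/f library was outside the range of the f/+ pair.

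KO was then set against WT. With run in the model, 5 of the 23 tested members were called lower in KO, 0 were called higher and 18 were not called, beside 8.96% of all tested genes called lower and 18.5% called in either direction. At an unadjusted p under 0.05 there were 16 of 23, beside 32.2% of all tested genes. The 5 were Ctrl (log2 fold change −1.68 ± 0.45 SE, adjusted p = 0.016), Rnase1 (−1.39 ± 0.37, adjusted p = 0.0166), Zg16 (−1.94 ± 0.56, adjusted p = 0.0252), Cpb1 (−1.47 ± 0.44, adjusted p = 0.0293) and Cel (−1.44 ± 0.44, adjusted p = 0.0334). The most abundant members were not called, with −1.14 ± 0.49 (SE) for Ctrb1 (adjusted p = 0.122), −1.07 ± 0.43 for Cela1 (0.101), −0.89 ± 0.56 for Prss2 (0.301) and −0.90 ± 0.53 for Try5 (0.255). Over the tested members the median log2 fold change was −1.22, with values from −1.94 to −0.89, against a median of 0.02 over all tested genes. The number of calls depended on single libraries and on the tool. Without KO replicate 2 it was 0 and the median was −0.57, without WT replicate 2 it was 2, and without WT replicate 3, KO replicate 1 or KO replicate 3 it was 3. Without WT replicate 4 it was 8, without KO replicate 4 it was 18, and it was 0 with DESeq2 and 21 with limma-voom. The share of all genes called in each of these fits is not given here.

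Permuting the genotype labels within runs (exact permutation, two-sided, on mean log2 CPM), done for each of the 29 members, gave its lowest p, 0.0833, for Zg16. The same exact test gave p = 0.117 for Rnase1, Ctrb1 and Cela3b, p = 0.133 for Cel and Cpb1 and p = 0.15 for Ctrl. Its highest p was 0.817, for Try10, and 0.0167 is the smallest that its 60 arrangements can give.

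Within run 1 the difference was negative in all 23 tested members, and 8 were called lower, beside 2.92% of all tested genes called lower and 6.05% called in either direction. They were Pnliprp2 (log2 fold change −2.28 ± 0.48 SE), Rnase1 (−1.86 ± 0.39), Cel (−2.04 ± 0.44), Sycn (−2.36 ± 0.53), Try4 (−2.32 ± 0.54), Reg1 (−2.22 ± 0.53), Cpb1 (−1.97 ± 0.48) and Ctrl (−2.04 ± 0.51), with adjusted p-values from 0.0217 to 0.041. None was called higher, beside 3.13% of all tested genes. In 19 of the 23 both KO libraries lay below all 3 WT libraries, beside 19% of all tested genes, and in 0 they lay above, beside 21.7%. The median was −1.84, against 0.01 over all tested genes. Leaving out KO replicate 2 or WT replicate 2 left 0 calls, and leaving out KO replicate 1 gave 20. DESeq2 also gave 0 calls in run 1.

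Within run 3 none of the 23 was called by edgeR's quasi-likelihood test, beside 8.17% of all tested genes, and 1 had an unadjusted p under 0.05. DESeq2 and limma-voom called 0 as well. Of the 23, 7 had a negative difference, and the median was 0.20, against −0.01 over all tested genes. Prss2 had a log2 fold change of 0.71 ± 0.35 (SE), Cpa1 of 0.67 ± 0.42 and Ctrb1 of −0.26 ± 0.33. Both KO libraries lay above both WT libraries in 2 members, Pnliprp2 and Sycn, beside 26.3% of all tested genes, and below both in 0, beside 25.5%. Without KO replicate 3, 5 members were called higher in KO (with all libraries 0 were, beside 3.93% of all tested genes), and without KO replicate 4, 1 was called lower.

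The change of the KO difference from run 1 to run 3 was tested as the interaction of genotype and run. It was positive in all 23 tested members, with log2 values from 0.48 (Zg16) to 4.61 (Sycn), against a median of −0.02 over all tested genes. None of the 23 was called by edgeR (adjusted p from 0.795 to 0.987), beside 0% of all tested genes, while 13 had an unadjusted p under 0.05, beside 5.95% of all tested genes. DESeq2 and limma-voom called 0, and the test without a filter on low counts called 20 of the 29 (share over all genes not given here). The fitted values of Sycn, Zg16 and Spink1 rest on libraries with 0 counts and depend on the prior count.

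**Figure D3:**
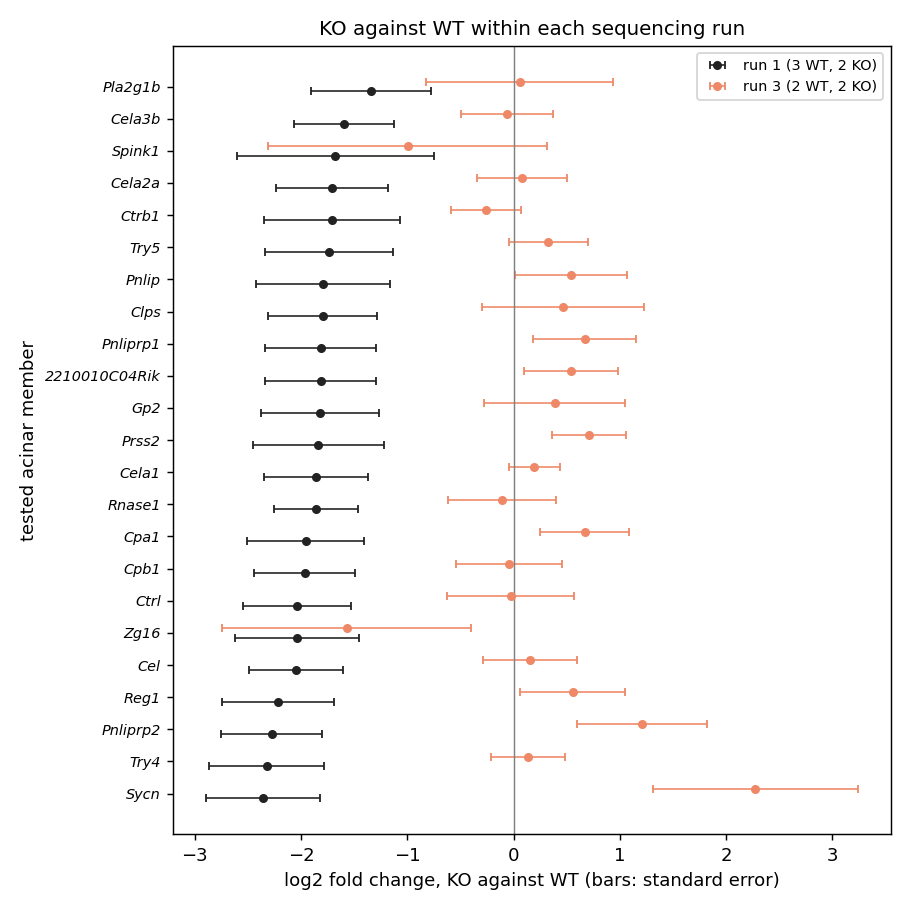
Log2 fold change of KO against WT for each of the 23 tested acinar genes within run 1 (black, 3 WT and 2 KO libraries) and within run 3 (orange, 2 WT and 2 KO libraries), with bars of 1 standard error. All 23 are negative in run 1, with a median of −1.84, and 16 of 23 are positive in run 3, with a median of 0.20.

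While the summed level changed by a factor of 69.8 between libraries, the make-up of the members' counts changed much less. The 10 genes with the highest counts (Ctrb1, Cela1, Prss2, Try5, Cpa1, Pnliprp1, Pnlip, Cel, Try4 and Cela2a) held between 73.9% and 83.3% of the members' counts in every library. Cela2a ranged 71.4 times in CPM across libraries and 1.32 times in its share of the members' counts, from 3.22% to 4.24%. Prss2 ranged 68.1 times in CPM and 1.51 times in share. No other member had a narrower range of share than these. Gp2 ranged 7.02 times in share, Clps 4.51 times and Ctrl 3.91 times, with their lowest shares at 4, 2 and 7 counts in run 3. Some shares did differ between the runs. Pnlip held 4.79% to 8.23% of the members' counts in run 1 and 1.66% to 2.46% in run 3, and Cpa1 held 7.45% to 8.53% and 5.29% to 7.35%. Reg1 went the other way, with 1.54% to 2.32% in run 1 and 2.92% to 5.39% in run 3. For these 3 genes, and for the low-count Prss3, Amy2a5 and Amy2b, the runs did not overlap. Counts of Prss3 stood beside an FPKM of 0 in 3 libraries of run 3, so its share there is uncertain. The shares of Pnlip and Reg1 overlapped between genotypes within each run. Those of Cpa1 were lower in KO in run 1 (7.81% and 7.45% against 8.18% to 8.53%). In run 3 the groups nearly met, at 5.42% in KO replicate 3 (39 of 719 counts) and 5.40% in WT replicate 4 (65 of 1203). KO replicate 4 held 7.35% and WT replicate 5 held 5.29%. At such counts the order in run 3 carries no weight, and separation by genotype was not counted over all members.

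**Figure D4:**
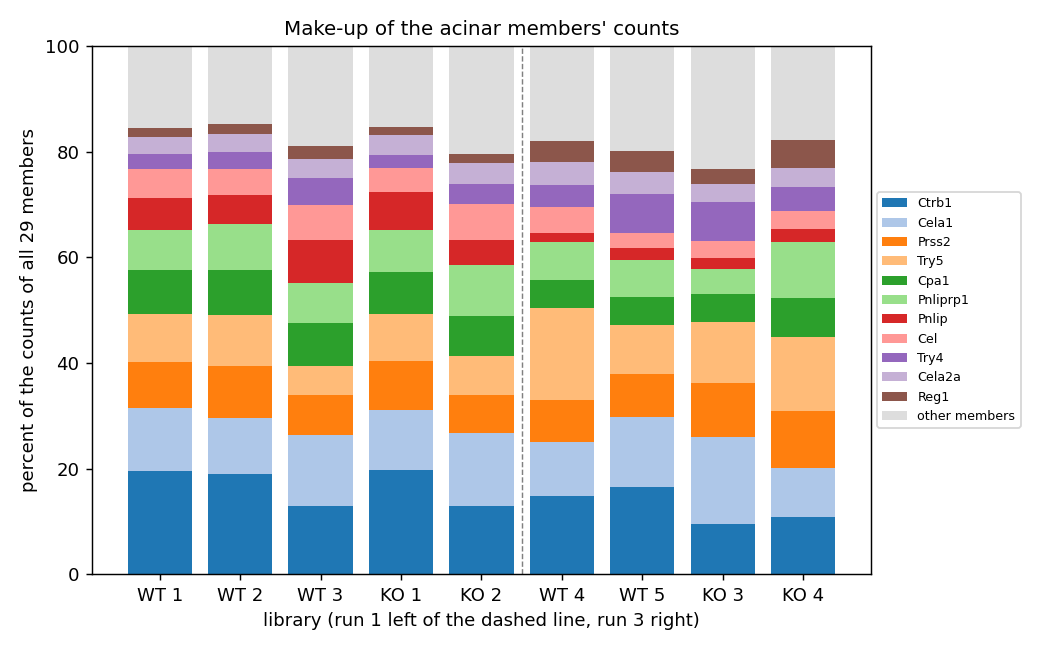
Percent of the counts of all 29 acinar genes held by the 10 genes with the highest counts, by Reg1 and by the other members, in each library (run 1 left and run 3 right of the dashed line). Ctrb1 holds 9.6% to 19.8%, Pnlip is narrower in run 3 than in run 1 and Reg1 is wider.

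Per length, on the authors' FPKM scale, Ctrb1 had the highest level of all members in 6 of 9 libraries and Try5 in the other 3. Ctrb1, Prss2, Try5 and Cela1 were among the 5 highest members in each of the 9 libraries. FPKM levels of Ctrb1 were 791, 1965 and 1011 in the WT and 668 and 94.5 in the KO libraries of run 1, and 35.4 and 44.2 in WT and 15.9 and 54.7 in KO in run 3. Clps, a short transcript, stood at 12.9 to 171 FPKM in run 1, and was above Cpb1 in 5 of the 9 libraries (WT replicates 1, 2 and 4 and KO replicates 1 and 4), for example at 67.6 against 56.7 FPKM in WT replicate 1. Its CPM was below that of Cpb1 in all 9. With FPKM in place of counts 0 members were called and the median log2 fold change of KO against WT was −1.08.

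Promoter sequence did not enter the choice of members. Promoter sequences from RefSeq (GRCm38.p6, 250 bases before to 50 after the start) were at hand for 23 of the 29 members and were searched on both strands. Acinar enzyme genes are known targets of PTF1, a complex around the transcription factor PTF1A that reads an E-box together with a TC-box. The E-box CACCTG was in 13 of 23 member promoters (56.5%), against 20.2% of all 32851 promoters in the table. The TC-box TTTCCC was in 10 of 23 (43.5%), against 25.2%, and both were in 6 of 23 (26.1%), against 4.86%. The letters TATAAA were in 12 of 23 (52.2%), against 13.6%, and AAGGTCA, a core motif of NR5A receptors, was in 3 of 23 (13.0%), against 4.72%. The more general CANNTG, which includes CACCTG, was in 19 of 23 (82.6%), against 72.3%. The promoters of Pla2g1b, Sycn and Rnase1 held none of these letters in the window searched. Such matches describe the sequence and do not show binding, and the shares were not tested. The 250 bases before the start are shown for the 4 tested members with both motifs in this stretch (Cela1, Cela2a, Cel and Prss2), for Ctrb1, which is highest by FPKM and has the TC-box alone, and for Pnlip, which differed most between the runs and has neither. They are written 5′ to 3′ on the strand of the gene, and capitals mark CACCTG and TTTCCC on either strand.
Cela1 (chr15:100687921-100688170, minus strand): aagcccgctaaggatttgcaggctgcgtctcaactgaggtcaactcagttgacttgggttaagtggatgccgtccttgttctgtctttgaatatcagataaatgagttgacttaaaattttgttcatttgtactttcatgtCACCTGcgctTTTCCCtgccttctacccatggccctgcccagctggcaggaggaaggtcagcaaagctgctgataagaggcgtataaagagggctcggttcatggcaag
Cela2a (chr4:141826006-141826255, minus strand): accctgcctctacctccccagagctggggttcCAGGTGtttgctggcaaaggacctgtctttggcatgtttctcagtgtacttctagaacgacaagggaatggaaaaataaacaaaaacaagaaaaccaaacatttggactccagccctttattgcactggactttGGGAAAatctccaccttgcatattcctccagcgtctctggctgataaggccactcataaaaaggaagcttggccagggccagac
Cel (chr2:28563404-28563653, minus strand): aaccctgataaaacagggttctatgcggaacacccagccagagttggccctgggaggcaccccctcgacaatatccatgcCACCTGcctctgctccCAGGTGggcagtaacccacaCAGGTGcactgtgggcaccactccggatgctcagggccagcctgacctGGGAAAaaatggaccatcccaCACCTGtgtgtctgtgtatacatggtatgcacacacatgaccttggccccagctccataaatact
Prss2 (chr6:41521526-41521775, plus strand): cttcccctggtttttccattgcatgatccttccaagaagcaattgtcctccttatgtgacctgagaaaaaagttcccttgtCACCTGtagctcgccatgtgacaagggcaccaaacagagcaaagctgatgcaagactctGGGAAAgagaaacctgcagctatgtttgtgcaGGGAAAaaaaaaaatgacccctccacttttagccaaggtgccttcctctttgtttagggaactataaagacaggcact
Ctrb1 (chr8:111691011-111691260, minus strand): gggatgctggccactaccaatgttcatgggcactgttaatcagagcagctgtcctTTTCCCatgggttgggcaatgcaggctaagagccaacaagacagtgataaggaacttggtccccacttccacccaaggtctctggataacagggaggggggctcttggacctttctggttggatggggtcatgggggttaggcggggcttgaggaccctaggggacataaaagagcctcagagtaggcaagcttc
Pnlip (chr19:58670115-58670364, plus strand): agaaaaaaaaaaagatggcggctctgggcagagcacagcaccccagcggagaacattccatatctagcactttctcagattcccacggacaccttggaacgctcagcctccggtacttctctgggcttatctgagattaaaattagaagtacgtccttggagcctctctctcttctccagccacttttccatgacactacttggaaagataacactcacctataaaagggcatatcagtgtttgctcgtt
In Cela1 the E-box begins 109 bases and the TC-box 99 bases before the start, on the same strand and 4 bases apart. Cel holds 4 E-boxes. The TC-boxes of Cel and Cela2a and both TC-boxes of Prss2 are on the opposite strand, as GGGAAA. Pnlip, without these letters, was lowest in KO replicate 2 within run 1, as were these 5 genes.

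Other acinar genes were followed from separate lists. Of 24 acinar genes that are no members, 12 were tested, and 2 fell in KO, 0 rose and 10 were not called (beside 8.96% lower and 18.5% in either direction over all tested genes), with a median of −0.69 (−1.38 within run 1, 0.24 within run 3). Klk1, a tissue kallikrein, stood at 119, 298 and 144 CPM in WT and 114 and 20.4 CPM in KO in run 1, and at 3.16 to 11.7 CPM in run 3, lowest in KO replicate 2 in run 1 and highest in KO replicate 4 in run 3. Dmbt1, a secreted scavenger protein, stood at 65.0 and 19.2 CPM in the KO libraries of run 1 against 85.0 to 284 CPM in WT. Neither gene was called with both runs in the model (adjusted p = 0.174 for Klk1 and 0.124 for Dmbt1), and Dmbt1 was called lower within run 1 (adjusted p = 0.0363). The genes called were Rab3d, a granule Rab GTPase, and Tmed6, a transport protein of the early secretory pathway. Rab3d stood at 110 to 145 CPM in WT and 70.0 and 81.1 CPM in KO in run 1, and at 119 and 117 CPM in WT and 67.5 and 87.3 CPM in KO in run 3. The log2 fold change of Rab3d was −0.68 ± 0.10 (SE, adjusted p = 0.000352), it fell within both runs (adjusted p = 0.0164 and 0.00546), and its difference between the runs was −0.04 (adjusted p = 0.792). Tmed6 had a log2 fold change of −1.09 ± 0.36 (SE, adjusted p = 0.044), and its log2 difference between the runs was −0.71 (adjusted p = 0.14). Neither Rab3d nor Tmed6 was thus called lower in run 3, while all tested members were, with log2 differences from −5.57 to −2.73. Of the 12 tested genes outside the members, 5 were called lower in run 3 and 7 were not called. Whether the RNA of Rab3d and Tmed6 came from acinar cells was not tested.

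Of the acinar transcription factors, Bhlha15 (Mist1), which builds the secretory apparatus, stood at 22.7 to 28.2 CPM in run 1 and 14.9 to 32.1 CPM in run 3, with a log2 difference between the runs of −0.03 (adjusted p = 0.913). Its highest value of run 1 was in KO replicate 2, where the enzymes were lowest. Nr5a2, which acts with PTF1A on enzyme genes, stood at 0.73 to 3.37 CPM and was not called. Ptf1a itself was at 0 to 1.62 CPM, near the limit of detection. With the mean log2 CPM of the 12 tested genes of these 2 lists as a covariate, 0 members were called and the median log2 fold change was 0.19. That mean was itself lowest of run 1 in KO replicate 2 (2.77) and highest of run 3 in KO replicate 4 (2.89). The fit thus takes out differences that the members share with these genes, so its 0 calls are no independent check.

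Genes of the regenerating family, secreted by acinar cells, were high in the same run. Reg2 stood at 59.4, 199 and 119 CPM in WT and 41.3 and 14.6 CPM in KO in run 1, and at 2.16 to 5.87 CPM in run 3. Of 4 tested family genes outside the members, 2 fell in KO, Reg2 (log2 fold change −1.56, adjusted p = 0.036) and Reg3a (−1.97, adjusted p = 0.0362), and Reg3b and Reg3g were not called (−1.27 and −1.72), beside 8.96% of all tested genes called lower. Within run 1 Reg2 and Reg3a were called lower as well (adjusted p = 0.0289 and 0.0254). Reg3b was also called lower there (log2 fold change −2.36, adjusted p = 0.0459), beside 2.92% of all tested genes. Within run 3 the log2 fold changes of Reg2, Reg3a and Reg3b were 0.53, 0.58 and 0.43 (adjusted p = 0.617, 0.731 and 0.659). All 4 were lower in run 3 (adjusted p from 1.69e-05 to 0.0223).

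Markers of other cell types differed in other ways, apart from a few. The 9 duct markers summed to 637 to 851 CPM in run 1 and 512 to 596 CPM in run 3. Most of this sum was Krt7, a keratin, at 474 to 627 CPM in run 1 and 306 to 397 CPM in run 3. The sum therefore says little about the other duct markers. Of 8 tested, 1 was called between genotypes: Ambp, a secreted protein precursor, rose (log2 fold change 1.93 ± 0.17 SE, adjusted p = 3.1e-06). Between the runs 3 of the 8 duct markers were lower in run 3 and 1 was higher. Krt19, a duct keratin, was one of those lower (log2 difference −2.25, adjusted p = 0.00136). It stood at 35.9, 45.3 and 32.8 CPM in WT and 29.5 and 2.92 CPM in KO in run 1, and at 2.66 to 7.78 CPM in run 3, so it too was lowest of run 1 in KO replicate 2. The 8 endothelial markers summed to 255 to 566 CPM in run 1, highest in KO replicate 2, and to 138 to 181 CPM in run 3, where 6 of 8 were lower. Fibroblast and stellate markers summed to 101 to 314 CPM in run 1 and to 497 to 862 CPM in run 3, where 6 of 7 tested were higher. Schwann markers summed to 4.97 to 12.6 CPM and 30.2 to 36.4 CPM, and macrophage markers to 57.5 to 64.2 CPM and 62.5 to 69.3 CPM. The 4 hemoglobin genes of the blood list had 0 counts in all libraries, while the FPKM table lists Hba-a1 at up to 9.36 (KO replicate 4), so the count table says nothing firm about blood. The part of these differences in the acinar values was not tested.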

How the data were processed

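Islet RNA of 9 libraries (5 WT, 4 KO) was measured by RNA sequencing, and libraries were grouped by genotype and run as the labels give them. The authors deposited raw read counts and FPKM values per gene symbol. The submitters' processing notes name FastQC, Bowtie2 2.2.4.0, Cuffdiff 2.2.1, edgeR and mm10, with no role, and the read counting step was not stated in the sources used here. A total of 27 symbols turned into dates (0.133% to 0.186% of counts) were left out. Counts as deposited were tested with edgeR 4.0.16 (quasi-likelihood test, TMM, default filter by genotype, model of run and genotype; R 4.3.3), within runs and for the interaction with the same genes, with Benjamini-Hochberg adjustment over all 12501 genes. A gene is called at an adjusted p under 0.05. SEs come from the F statistic. The fit was tested on simulated data. Alternatives used DESeq2 1.42.0, limma 3.58.1, other scalings and filters, the f/f controls alone, a covariate, FPKM with pseudocounts of 0.1 and 1, and each library left out.

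Members, lists and tests were chosen with earlier results of these data known. All members are accounted for. Of other lists the text names up to 4 tested genes with the highest average level and any called one. Krt19 and Ptf1a were chosen after their values were seen. Replicates of a group differed beyond counting noise (chi-square per degree of freedom 3.35 to 45.4), so each counts as 1 sample. Depth of 3796043 to 6073537 counts limits precision for genes at a few CPM.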

Additional observations from a re-analysis of the deposited data

Results flagged for a closer look

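Of 60 sets of values (29 genes and their sum, in WT and in KO), 10 had 1 library apart from the others, measured as the gap to its neighbour over the whole range. The cut-off used gives about 1 in 20 such sets when all values come from 1 normal distribution. These sets join 2 runs with mean summed levels of 4264 and 213 CPM, so that rate does not apply to them. The sets are also not independent because the genes share libraries. In KO the library apart was replicate 1 in all 8 cases: Ctrb1 (gap 0.881 of the range, 551 CPM), Gp2 (0.87, 54.4 CPM), Pla2g1b (0.913, 16.1 CPM), Pnlip (0.873, 203 CPM), Prss2 (0.881, 260 CPM), Spink1 (0.884, 3.78 CPM), Sycn (0.967, 7.56 CPM) and Try5 (0.849, 248 CPM). It was the higher of the 2 KO libraries of run 1, and the KO group here joins both runs. In WT it was replicate 3 for Amy2a5 (0.763, 5.72 CPM) and for Prss3 (0.843, 9.95 CPM), both of them genes whose sequence is shared with relatives.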

How the results depend on the processing

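The count of members called lower in KO (5) was the same with RLE size factors, with scaling factors made without the members and Rn45s, and when 1 CPM or more was required in 4 libraries. It was 0 without the run term, 0 with DESeq2, 0 on FPKM with each pseudocount and filter, 0 with the covariate, 3 with the f/f controls alone, 21 with limma-voom and 22 of 29 without a filter, and 0 to 18 with single libraries left out. The median log2 fold change was 0.19 with the covariate and −1.72 to −0.57 with single libraries left out. Calls among other acinar genes (2) were 1 without the run term, 5 with limma-voom, 5 without a filter, 1 with the f/f controls alone and 1 to 3 with single libraries left out. Calls within run 1 (8) were 0 with DESeq2, 5 with limma-voom, 21 without a filter, 21 with the f/f controls alone (1 WT library) and 0 to 20 with single libraries left out, and within run 3 they were 0 to 5. The interaction gave 20 calls without a filter. The 23 members lower in run 3 were 23 to 25 under all alternatives run. For these alternatives the share of all genes called is not given here, so their counts do not show whether the members stand out.

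Of 472 values of single members under these settings, 357 kept direction and side of the threshold, 47 lost the call and 53 gained one. The other 15 reversed, all with the covariate: Cela2a (0.16), Cela3b (0.027), Prss2 (0.46), Try5 (0.19), 2210010C04Rik (0.29), Cpa1 (0.35), Pnlip (0.56), Pnliprp1 (0.40), Pnliprp2 (0.36), Clps (0.37), Pla2g1b (0.31), Spink1 (0.27), Reg1 (0.18), Sycn (0.76) and Gp2 (0.28). The covariate is made from acinar genes whose mean level varies with the members across libraries. A lost call or a reversal under it is therefore no independent check. The causes were not tested. Where an arm was left with 1 library, its spread was taken as that of the others. No paired analysis was possible because the labels give the groups no shared replicate numbers.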
